A study of Homo sapiens with 9 samples.

Results

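ATF4 and 35 genes known as its targets or as targets of the integrated stress response were followed in Huh-7 cells and in knockout cells made from them. The genes were chosen by name, 36 of the 58735 genes listed in the files, and each was listed once and expressed at a mean FPKM above 1 in control cells. Huh-7 is a human hepatoma line that secretes lipoproteins. Ako-3 is a clone of Huh-7 in which APOB, the structural protein of these particles, was targeted in exon 6 with 3 guide RNAs and Cas9, and Mko-3 is a clone made earlier in which MTTP, the gene of the transfer protein that loads apoB with lipid, was knocked out. There were 3 libraries of poly-A RNA for each of Huh-7, Ako-3 and Mko-3, labelled as biological replicates, without word on whether the cultures were separate, so that p-values measure the spread between these libraries. All cells, the control included, were kept overnight in serum-free medium before RNA was taken. Each knockout was represented by 1 clone, so that the loss of the gene and what belongs to the clone cannot be told apart. The same 3 control libraries entered both comparisons with Huh-7.

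In the integrated stress response, kinases that sense misfolded protein, lack of amino acids, lack of heme or double-stranded RNA phosphorylate eIF2, which lowers protein synthesis in general while translation of ATF4 rises. ATF4 pairs with C/EBP proteins on composite C/EBP-ATF response elements and switches on genes for amino acid uptake and synthesis, glutathione turnover, tRNA charging and its own feedback. In hepatocytes the pathway responds to amino acid supply and to stress in the endoplasmic reticulum, where lipoproteins are put together.

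The response element was looked for in promoters of RefSeq (GRCh38.p14), from 250 bases before to 50 bases after each start site, as the letters TGATGNAA on either strand. Of the 36 genes, 27 had a promoter in the tables, and 6 of these genes held the letters (22.2% of genes, against 4.46% of all genes with a promoter, or 13.0% of their 46 promoters). Among all promoters of 300 bases, 1270 of 35116 did (3.62%). The windows of 48 bases around the matches are printed along the strand of the gene, because these are the genes of the set in which the element can be read directly, and the capitals mark the match.
ATF3, chr1:212565196-212565243, plus strand, match from base -191: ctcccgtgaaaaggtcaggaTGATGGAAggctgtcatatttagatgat
CHAC1, chr15:40953242-40953289, plus strand, match from base -209 in reverse orientation: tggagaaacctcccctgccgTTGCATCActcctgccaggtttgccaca
ASNS, chr7:97872449-97872496, minus strand, match from base -68: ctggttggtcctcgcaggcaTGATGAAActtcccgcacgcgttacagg
CEBPG, chr19:33374051-33374098, plus strand, match from base -42: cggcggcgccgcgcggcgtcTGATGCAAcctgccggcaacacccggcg
BCAT1, chr12:24949122-24949169, minus strand, match from base -48: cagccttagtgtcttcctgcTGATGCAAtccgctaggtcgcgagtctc
JDP2, chr14:75427986-75428033, plus strand, match from base -16: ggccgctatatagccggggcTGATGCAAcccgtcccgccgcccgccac
All 6 genes were lower than control in both clones, as were most of the set, 30 of 36 in Ako-3 and 33 of 36 in Mko-3. BCAT1 and JDP2 were called in neither clone by the thresholds given below. A match of these letters is a description and was not tested as a binding site. The genes were chosen as known targets, so that a share above that of all genes is not independent of the choice. The share by gene also depends on how many promoters each gene has in the tables.

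Between 14638727 and 20179760 fragments per library were counted on genes. APOB was expressed at an FPKM of 179, 235 and 258 in the control libraries and at 94.6, 83.6 and 84.5 in Ako-3, and MTTP at 116, 111 and 121 in the control and at 16.0, 16.6 and 15.3 in Mko-3. Both targeted genes were thus lower in their own clone, although a count over the whole gene does not read the edit itself. All 10 hepatocyte markers had a mean FPKM above 1 in every group, with a summed FPKM of 5308 to 5489 in Huh-7, 6416 to 6749 in Ako-3 and 5155 to 5409 in Mko-3. The 5 leukocyte markers were split. LYZ was at a mean FPKM of 155 in Huh-7, 187 in Ako-3 and 191 in Mko-3, and CD14 at 3.12, 5.49 and 3.87. PTPRC, CD3E and CD68 were below 0.1 in every group. Of the endothelial and stromal markers only PECAM1 and, in Mko-3, CDH5 passed a mean FPKM of 1. Mitochondrial genes took 7.06% to 7.40% of counts in Ako-3 against 5.52% to 6.17% in Huh-7 and 5.75% to 5.82% in Mko-3. The part of this share in the Ako-3 values was not tested, while the Mko-3 libraries lay within the control range. These are bulk samples, so that fewer cells with a transcript and less of it per cell cannot be told apart.

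Most of the 36 genes were lower in both knockout clones. In Ako-3 cells 30 were lower than control and 6 higher, with a median log2 fold change of -0.62, and in Mko-3 cells 33 were lower and 3 higher, with a median of -0.63. Over all genes tested the medians were -0.01 in both comparisons. In each clone the 3 lowest log2 fold changes were those of ASNS, CHAC1 and CTH, enzymes of asparagine synthesis, glutathione breakdown and cysteine synthesis, and the transcription factors ATF3 and DDIT3 fell in both. ATF5 alone rose in both clones, and the mRNA of ATF4 itself differed little from control.

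A gene was called where its log2 fold change was at least 1 in either direction at an adjusted p of at most 0.05 (edgeR, 3 libraries against 3, adjusted over all genes tested). "Rose" and "fell" are used of called genes alone. In Ako-3 cells 11 of the 36 genes were called (30.6%), 10 of them down and 1 up, where 8.52% of all 15787 genes tested were called, 5.00% down and 3.52% up. In Mko-3 cells 12 were called (33.3%), 11 down and 1 up, where 11.0% of 15745 genes were called, 7.22% down and 3.82% up. By the adjusted p alone 31 genes differed in Ako-3 cells, 26 of them lower, where 49.9% of all genes differed and 24.4% were lower, and 30 differed in Mko-3 cells, 29 of them lower, where 54.0% of all genes differed and 27.1% were lower. In both clones 9 genes were called, in Ako-3 cells alone GDF15 and STC2, and in Mko-3 cells alone CEBPB, CEBPG and NUPR1. The FPKM of 31 genes in Ako-3 and of 29 genes in Mko-3 did not overlap with control, which was so for 57.6% and 60.7% of all genes. In each clone 27 of these lay wholly below control, where 28.4% of all genes did in Ako-3 and 29.8% in Mko-3. All 36 genes were chosen with earlier results of these data known, so that none of these shares is independent of the choice. Of the genes described here, CHAC1, CTH, GDF15, DDIT3 and SLC7A11 also stand on gene lists that the study drew up from these same libraries. The direction of these genes is therefore not independent evidence.

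**Figure D1:**
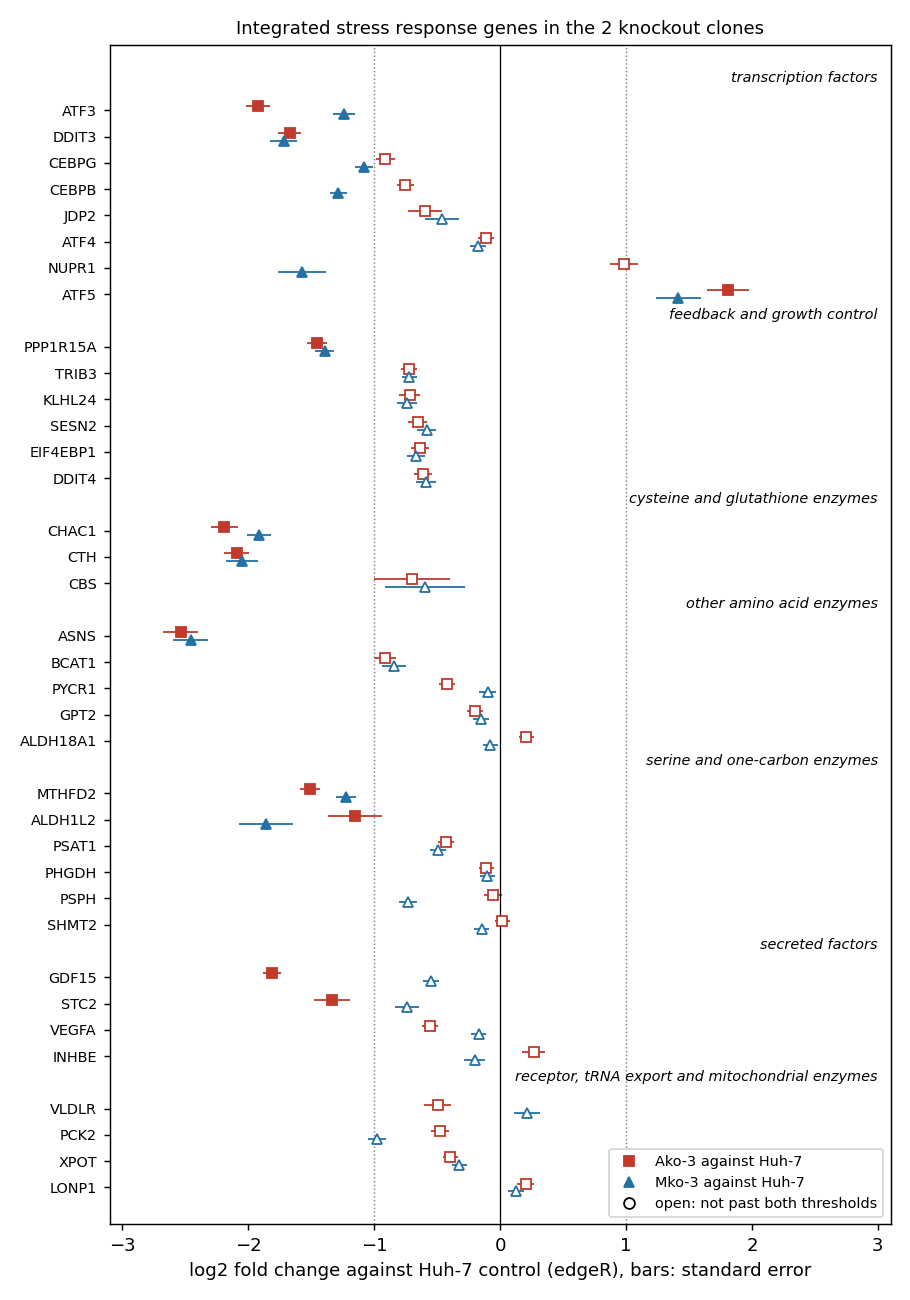
Log2 fold change of each of the 36 genes against Huh-7 control (horizontal axis), by role, for Ako-3 (squares) and Mko-3 (triangles); bars are the standard error of the edgeR fit on 3 libraries against 3, filled symbols mark called genes and dotted lines a log2 fold change of 1 in either direction. Most symbols lie left of 0, with ASNS farthest at -2.54 and -2.46, ATF5 lies right of 0 in both clones, and NUPR1 lies on opposite sides at 0.98 and -1.57.

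ATF4 (chr22:39519695-39522685 in hg38, plus strand) was among the more abundant transcripts of the set. Its FPKM was 201, 220 and 186 in Huh-7, 184, 194 and 185 in Ako-3 and 183, 180 and 179 in Mko-3. Ako-3 and control libraries overlapped, and the log2 fold change was -0.11 ± 0.06 (SE; adjusted p = 0.16 by the edgeR test). All Mko-3 libraries lay just under the lowest control library, at -0.17 ± 0.06 (adjusted p = 0.024). Neither call was firm. The Ako-3 value was -0.16 (adjusted p = 0.042) without Huh-7 replicate 3, and the adjusted p of the Mko-3 value rose to 0.12 without Huh-7 replicate 2 and to between 0.073 and 0.12 without any of the 3 Mko-3 libraries, with a range of 0.0019 to 0.12 over all alternatives. The ATF4 transcript thus differed by far less than those of the called genes. ATF4 protein, which is set largely by translation, was not analysed here.

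Of the other 7 transcription factors, 2 fell in Ako-3 cells and 5 in Mko-3 cells, and ATF5 rose in both. Among all genes tested 5.00% were called down in Ako-3 and 7.22% in Mko-3, and 3.52% and 3.82% were called up. ATF3, a stress-induced member of the ATF family and itself a target of ATF4, was at an FPKM of 11.4, 13.3 and 11.7 in Huh-7, 2.96, 3.32 and 3.31 in Ako-3 and 5.17, 5.30 and 5.03 in Mko-3. The 3 groups did not overlap, and Ako-3 was lowest, at -1.92 ± 0.09 on the log2 scale (adjusted p = 2.6e-12), with Mko-3 at -1.24 ± 0.09 (adjusted p = 2.4e-10). DDIT3, which encodes the pro-apoptotic factor CHOP, was at 30.7, 32.1 and 29.6 in Huh-7, 10.2, 9.60 and 9.30 in Ako-3 and 11.0, 9.33 and 7.80 in Mko-3. It fell to a like level in both clones, with log2 fold changes of -1.67 and -1.72 (adjusted p = 1.2e-11 and 4.3e-11). Exons of DDIT3 share 27.2% of their bases with MARS1 on the other strand, and without strand in the libraries these fragments cannot be told apart. MARS1 itself was at -0.27 and -0.35, and the part of the overlap in the DDIT3 values was not tested.

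CEBPB and CEBPG, C/EBP proteins that pair with ATF4, were lower in both clones. Mko-3 was lower than Ako-3 by the adjusted p for both genes, although for CEBPG (-0.17, adjusted p = 0.0038) this was lost without Mko-3 replicate 3 (-0.13, adjusted p = 0.061). CEBPB was at an FPKM of 249, 248 and 209 in Huh-7, 136, 141 and 144 in Ako-3 and 98.0, 95.1 and 99.0 in Mko-3, and CEBPG at 57.0, 47.1 and 55.2, then 29.1, 29.2 and 26.7, then 25.7, 26.2 and 24.0. For neither gene did any of the groups overlap. CEBPB fell by 1.29 in Mko-3 cells (adjusted p = 2.6e-12) and was at -0.75 in Ako-3 cells (adjusted p = 1.6e-08), and CEBPG fell by 1.08 in Mko-3 cells (adjusted p = 9.9e-11) and was at -0.91 in Ako-3 cells (adjusted p = 4e-09). JDP2, a repressor of the same protein class, was lower without being called, at -0.60 and -0.46, and its Mko-3 libraries overlapped with control.

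ATF5 rose in both clones, and NUPR1 lay on opposite sides of control in the clones. ATF5, a close relative of ATF4 that is also regulated by translation, was at an FPKM of 0.955, 1.20 and 0.929 in Huh-7, 3.17, 4.01 and 3.59 in Ako-3 and 2.93, 2.37 and 2.97 in Mko-3. All knockout libraries lay above all control libraries, and ATF5 rose by 1.81 ± 0.17 in Ako-3 (adjusted p = 2.6e-08) and 1.42 ± 0.18 in Mko-3 (adjusted p = 8.7e-07). Only 50 to 54 fragments were counted per control library, and 19.5% of the exonic bases of ATF5 are shared with NUP62 on the other strand, a more abundant gene that was itself higher, at 0.66 and 0.56, so that the size of the ATF5 change is uncertain. NUPR1, a small stress-induced chromatin protein, was at 1.83, 1.64 and 1.64 in Huh-7, 3.32, 3.28 and 3.56 in Ako-3 and 0.593, 0.398 and 0.755 in Mko-3. The groups stood apart with control in the middle, at 0.98 ± 0.11 in Ako-3 (adjusted p = 4.7e-07) and -1.57 ± 0.19 in Mko-3 (adjusted p = 4e-07). The Ako-3 value lay at the threshold, and reached 1.04 without Huh-7 replicate 1, 1.00 without Ako-3 replicate 1 and 1.01 without Ako-3 replicate 2.

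**Figure D2:**
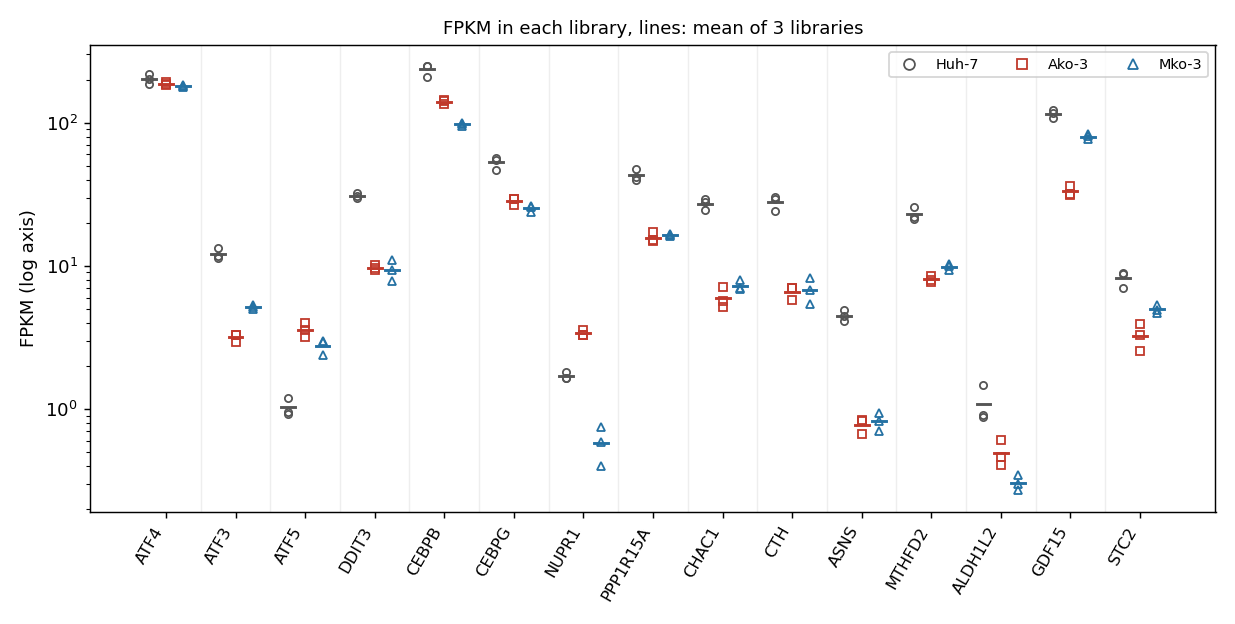
FPKM of ATF4 and of the 14 genes called in any comparison in each of the 9 libraries (vertical log axis), for Huh-7 (circles), Ako-3 (squares) and Mko-3 (triangles), with lines at the mean of 3 libraries. The ATF4 libraries lie close together at 179 to 220, while those of ASNS separate into 4.13 to 4.92 in Huh-7 and 0.669 to 0.945 in the clones, and those of NUPR1 lie above control in Ako-3 and below it in Mko-3.

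All 6 genes of feedback and growth control were lower in both clones by the adjusted p, and 1 of them fell. Among all genes tested 24.4% were lower in Ako-3 and 27.1% in Mko-3 by the adjusted p, and 5.00% and 7.22% were called down. PPP1R15A, which encodes GADD34, the subunit that directs a phosphatase to eIF2 and so ends the response, was at an FPKM of 47.3, 39.7 and 41.7 in Huh-7, 15.1, 17.1 and 14.9 in Ako-3 and 16.6, 16.6 and 16.3 in Mko-3. Both clones lay far below control and overlapped each other, and the log2 fold changes were -1.45 ± 0.08 and -1.39 ± 0.07 (adjusted p = 1.2e-11 and 2.9e-12). The other 5 genes lay in a narrow band of log2 fold change, from -0.72 to -0.61 in Ako-3 and from -0.74 to -0.58 in Mko-3. They were TRIB3, a pseudokinase that holds back ATF4 and the most abundant transcript of the set at 267 ± 16.2 FPKM in control (SD, n = 3), DDIT4 and SESN2, which restrain mTORC1, EIF4EBP1, which binds the cap-binding factor eIF4E, and KLHL24, an adaptor of a ubiquitin ligase. None of these 5 differed between the clones by the adjusted p, where 41.6% of all genes did.

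The 3 cysteine and glutathione enzymes had the lowest median of the 7 roles, at -2.09 in Ako-3 and -1.91 in Mko-3. In each clone 2 of them fell, where 5.00% of all genes tested were called down in Ako-3 and 7.22% in Mko-3. CHAC1, which degrades glutathione, was at an FPKM of 27.8, 29.1 and 24.7 in Huh-7, 7.15, 5.65 and 5.18 in Ako-3 and 6.87, 7.95 and 7.0 in Mko-3. CTH, which releases cysteine from cystathionine, was at 29.3, 24.3 and 30.3 in Huh-7, 7.0, 6.98 and 5.77 in Ako-3 and 6.74, 8.21 and 5.43 in Mko-3. For both genes the clones overlapped each other and lay apart from control. CHAC1 fell in both, to -2.19 ± 0.11 and -1.91 ± 0.09 (adjusted p = 2.6e-12 and 9.2e-13), as did CTH, to -2.09 ± 0.10 and -2.05 ± 0.13 (adjusted p = 2.6e-12 and 8.1e-09). CBS, which makes cystathionine, did not pass the test, at -0.70 ± 0.30 (adjusted p = 0.13) and -0.60 ± 0.32 (adjusted p = 0.19). Its control libraries were spread from 6.23 to 13.2. Without the lowest, Huh-7 replicate 3, it was at -0.93 and -0.83 (adjusted p = 0.00015 and 0.0029), and without Huh-7 replicate 1 at -0.39 in Ako-3 (adjusted p = 0.031). A near-identical copy, CBSL, took 13 to 18 fragments in the control libraries but 15 to 476 in Ako-3 and 14 to 216 in Mko-3, so that CBS is uncertain.

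Among the other amino acid enzymes ASNS stood alone. ASNS, which makes asparagine and whose promoter match is printed above, was at an FPKM of 4.92, 4.13 and 4.45 in Huh-7, 0.826, 0.833 and 0.669 in Ako-3 and 0.945, 0.824 and 0.700 in Mko-3. Its log2 fold changes were -2.54 ± 0.14 and -2.46 ± 0.14 (adjusted p = 1.4e-11 and 1.1e-11), the largest fall of the 36 genes in each clone, and the clones overlapped. The pseudogene ASNSP1, with which ASNS may share fragments, took more fragments than ASNS and was also lower, at -1.96 and -2.08. Exons of ASNS also share 49.3% of their bases with a noncoding RNA gene on the same strand, which took a mean of 11.1 fragments. Only 52 to 74 fragments of ASNS were counted per Ako-3 library and 48 to 75 per Mko-3 library. The size of the ASNS change is therefore uncertain. BCAT1, an aminotransferase of branched-chain amino acids, was at -0.91 and -0.84 without being called. The proline enzymes and GPT2, which makes alanine in mitochondria, had log2 fold changes nearer to 0. PYCR1 was at -0.42 in Ako-3 and -0.10 in Mko-3 (adjusted p = 0.21), ALDH18A1 at 0.21 and -0.08 (adjusted p = 0.26), and GPT2 at -0.20 and -0.15 (adjusted p = 0.011 and 0.044).

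In serine and one-carbon metabolism the mitochondrial folate enzymes MTHFD2 and ALDH1L2 fell in both clones, and the enzymes that make serine and glycine were called in neither. MTHFD2, which oxidizes methylene-tetrahydrofolate, was at an FPKM of 21.3, 25.7 and 21.8 in Huh-7, 7.78, 8.45 and 8.0 in Ako-3 and 9.40, 10.3 and 10.0 in Mko-3. No group overlapped with another, and the gene fell, with -1.51 ± 0.08 in Ako-3 and -1.22 ± 0.08 in Mko-3 (adjusted p = 6.8e-12 and 5.7e-11). ALDH1L2, which oxidizes formyl-tetrahydrofolate, was at 0.913, 0.885 and 1.48 in Huh-7, 0.461, 0.613 and 0.404 in Ako-3 and 0.270, 0.345 and 0.298 in Mko-3. It fell in both, with -1.15 ± 0.21 (adjusted p = 0.00026) and -1.86 ± 0.21 (adjusted p = 3.1e-07). The third control library was high, and without it the Ako-3 value was -0.86, no longer called.

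Of the 3 enzymes that make serine, PSAT1 was lower in both clones (-0.43 and -0.49), PHGDH, which catalyses the first step, passed the test in neither (-0.11, adjusted p = 0.14, and -0.10, adjusted p = 0.15), and PSPH, which catalyses the last, was lower in Mko-3 cells (-0.73, adjusted p = 3e-08) and at -0.05 in Ako-3 cells (adjusted p = 0.56). SHMT2, which splits serine into glycine in mitochondria, was at 0.02 and -0.14. PSPH shares sequence with the pseudogene PSPHP1, which was at -0.22 and -0.32.

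Of the 4 secreted factors 2 fell in Ako-3 cells, where 5.00% of all genes tested were called down. None was called in Mko-3 cells, where 11.0% of all genes were called. All 4 differed between the clones by the adjusted p, as did 41.6% of all genes. GDF15, a circulating stress hormone that curbs appetite, was at an FPKM of 122, 117 and 108 in Huh-7, 31.9, 35.9 and 31.5 in Ako-3 and 82.9, 80.3 and 76.7 in Mko-3. The 3 groups did not overlap, with Ako-3 far below the others. GDF15 fell by 1.81 ± 0.07 in Ako-3 cells (adjusted p = 8.7e-14) and was at -0.55 ± 0.06 in Mko-3 cells (adjusted p = 3.2e-07). STC2, a glycoprotein hormone, was at 8.90, 6.96 and 8.80 in Huh-7, 3.31, 3.92 and 2.55 in Ako-3 and 4.91, 4.73 and 5.31 in Mko-3, again with no overlap. It fell by 1.34 ± 0.14 in Ako-3 (adjusted p = 7.8e-06) and was at -0.74 ± 0.09 in Mko-3 (adjusted p = 9.7e-07). VEGFA, the endothelial growth factor, was at -0.56 and -0.17, and INHBE, a liver activin subunit, at 0.27 and -0.20, with libraries that overlapped control in both clones.

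The last 4 genes were called in neither clone, where 8.52% of all genes tested were called in Ako-3 and 11.0% in Mko-3. PCK2, the mitochondrial enzyme that makes phosphoenolpyruvate, came closest, at -0.98 in Mko-3 (adjusted p = 3.6e-10), or -1.03 and so called without Huh-7 replicate 2, against -0.48 in Ako-3. XPOT, which exports tRNA from the nucleus, was at -0.40 and -0.32. VLDLR, a receptor of triglyceride-rich lipoproteins, was lower in Ako-3 (-0.49, adjusted p = 0.0007) and at 0.22 in Mko-3 (adjusted p = 0.081). LONP1, a protease of the mitochondrial matrix, was at 0.20 (adjusted p = 0.013) and 0.13 (adjusted p = 0.088).

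The clones were also compared directly, without the control libraries. Of the 36 genes 2 were called, 1 up and 1 down, where 5.73% of 15528 genes tested were called, 2.26% up and 3.47% down. By the adjusted p 18 differed, 8 of them higher in Mko-3 and 10 lower, where 41.6% of all genes differed, 21.1% higher and 20.6% lower. The FPKM of 20 genes did not overlap between the clones, 12 of them lower in Mko-3, where 49.8% of all genes did not overlap and 23.6% were lower. The median log2 fold change of Mko-3 against Ako-3 was 0.02. GDF15 was higher in Mko-3 by 1.26 ± 0.05 (adjusted p = 7e-34) and NUPR1 was lower, at -2.56 ± 0.14 (adjusted p = 3.5e-26). Neither gene overlapped between the clones. Below the threshold, VLDLR, ATF3 and STC2 were higher in Mko-3 (0.71, 0.68 and 0.60), and ALDH1L2, PSPH, CEBPB and PCK2 were lower (-0.71, -0.68, -0.53 and -0.50). Of these, ALDH1L2 did not pass without Ako-3 replicate 2 (-0.51, adjusted p = 0.088). DDIT3, PPP1R15A, ASNS and CTH differed by 0.08 or less in size and did not pass the test.

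The steps before and beside ATF4 were followed in 5 further lists. Among all genes tested, 49.9% differed by the adjusted p in Ako-3 cells, 25.5% higher and 24.4% lower, and 8.52% were called. In Mko-3 cells 54.0% differed, 26.9% higher and 27.1% lower, and 11.0% were called. Of 13 genes for the eIF2 kinases, eIF2, its exchange factor eIF2B and the constitutive phosphatase subunit PPP1R15B, none was called, with medians of 0.04 and 0.05. By the adjusted p 3 were higher and 2 lower in Ako-3, and 3 higher and 3 lower in Mko-3. These were 38.5% and 46.2% of the list, below the shares of all genes. Phosphorylation of eIF2 was not analysed here. Among 12 cytosolic tRNA synthetases known as ATF4 targets, which charge tRNA with amino acids, 8 were lower and 1 higher in Ako-3 by the adjusted p, and 7 were lower and 2 higher in Mko-3, with medians of -0.30 and -0.27. SARS1, the seryl-tRNA synthetase, was called, at -1.02 in Ako-3 (33.5, 29.2 and 34.0 FPKM in control against 15.2, 16.8 and 15.9) and at -0.70 in Mko-3. The 8 other cytosolic synthetases had medians of 0.10 and 0.07, and only HARS1 was called, up by 1.17 in Mko-3. By the adjusted p 37.5% of these 8 differed in each clone, below the shares of all genes, against 75% of the 12 ATF4 targets. The shares called were near those of all genes, at 8.33% for the ATF4 targets in Ako-3 and 12.5% for the others in Mko-3. Counted by gene, TGATGNAA stood in a promoter of 7 of 10 of the first kind of synthetase genes with a promoter, 0 of 6 of the second, 4 of 8 amino acid transporter genes, 1 of 11 genes of the eIF2 list and 1 of 17 targets of XBP1 and ATF6. Of all genes, 1217 of 27305 held it. The synthetases were split, and the transporters chosen, as known ATF4 targets, so that these shares are not independent of the choice.

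Amino acid transporters known as ATF4 targets were lower in Ako-3 cells in 9 of 9 genes by the adjusted p, with a median of -0.68, and 2 of them fell. In Mko-3 cells 6 were lower and 1 higher by the adjusted p, with a median of -0.41, and 1 fell. Of all genes tested 24.4% were lower in Ako-3 and 27.1% in Mko-3 by the adjusted p, and 5.00% and 7.22% were called down. SLC7A11, the cystine importer that feeds glutathione synthesis, was at an FPKM of 8.91, 10.4 and 10.3 in Huh-7, 2.19, 2.21 and 2.09 in Ako-3 and 2.36, 2.48 and 1.68 in Mko-3. It fell by 2.19 in each clone (adjusted p = 7.4e-14 and 1.2e-09), with no overlap with control. SLC7A1, an importer of cationic amino acids, fell by 1.29 in Ako-3 and was at -0.65 in Mko-3.

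Targets of XBP1 and ATF6, the other arms of the response to stress in the endoplasmic reticulum, were on the opposite side of 0. Of 17 genes 16 were higher in each clone, with medians of 0.44 and 0.67. By the adjusted p 13 were higher in Ako-3, and 14 were higher and 1 lower in Mko-3, with 2 and 5 called up. Of all genes tested 25.5% and 26.9% were higher by the adjusted p, and 3.52% and 3.82% were called up. The 1 gene below control in each clone was XBP1 itself, at -0.08 in Ako-3 (adjusted p = 0.24) and -0.22 in Mko-3 (adjusted p = 0.0033 by the edgeR test). A count over the whole gene does not separate spliced from unspliced XBP1 mRNA. The study measured both forms by qPCR in Ako and Huh-7 cells and reported no significant difference. CRELD2, a chaperone-like protein of the reticulum, rose by 1.11 and 1.12 (adjusted p = 1e-08 and 2.9e-09). MANF, a secreted protein of the reticulum, was at an FPKM of 16.2, 19.0 and 14.8 in Huh-7, 31.2, 36.1 and 37.2 in Ako-3 and 46.2, 45.8 and 46.1 in Mko-3, and rose by 1.06 and 1.46 (adjusted p = 9.6e-09 and 5.5e-12). The lists were not tested against each other.

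**Figure D3:**
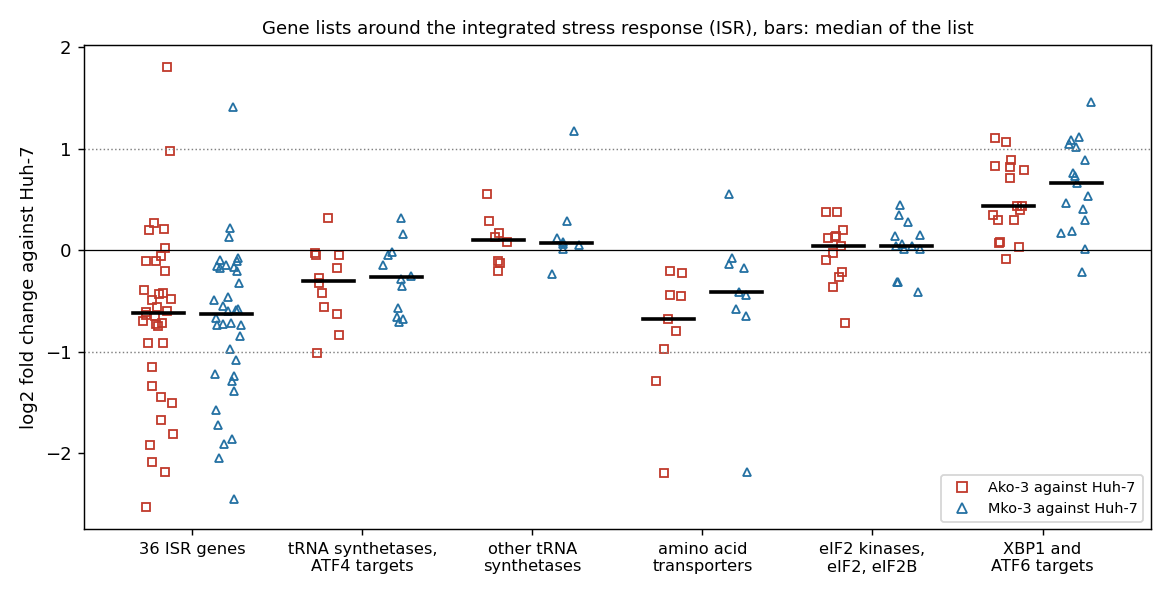
Log2 fold change against Huh-7 control (vertical axis) of every gene in the 36-gene set and 5 further lists, for Ako-3 (squares) and Mko-3 (triangles), with bars at the median of a list and dotted lines at a log2 fold change of 1 in either direction. The 36 genes have medians of -0.62 and -0.63 and the transporters of -0.68 and -0.41, the eIF2 list and the other synthetases lie near 0, and the XBP1 and ATF6 targets have medians of 0.44 and 0.67.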

How the data were processed

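The 9 libraries were grouped by their labelled condition. The authors had reads aligned to hg38 with HISAT2 2.0.5 and counted per gene with featureCounts 1.5.0-p3, and the raw counts were deposited without normalization. The FPKM values deposited by the authors are these counts scaled to gene length and to a library size, which by the values follows DESeq2 size factors over all 9 libraries. Library preparation did not mark strand. Counts were tested with edgeR 4.0.16 (R 4.3.3): TMM, genes kept by filterByExpr (minimum count 10), robust dispersion, quasi-likelihood F test, a separate fit of 6 libraries per comparison, Benjamini-Hochberg adjustment over all genes tested, and the fold and p thresholds of the study. The SE is the log2 fold change divided by the square root of F. Scripts were tested on simulated data. Replicates differed beyond sampling noise, so none was merged. The Huh-7 libraries, which enter both comparisons with control, differed most from each other. Their chi-square per gene was 6.38 to 8.13 between pairs of libraries, against 2.96 to 3.26 in Ako-3 and 2.34 to 2.70 in Mko-3. Alternatives were DESeq2 1.42.0, other scalings and filters, limma 3.58.1 on log2(FPKM + 1) or log2(FPKM + 0.1), a fit of 9 libraries, a replicate block and leaving out each library. The 36 genes and all lists were chosen with earlier results of these data known. Values in every library are given for ATF4 and for each of the 36 genes called in any comparison, and up to 2 called genes are named per further list. XBP1 is named besides, as the factor that gives its list the name. Of the synthetases, 18 were matched through older symbols.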

Additional observations from a re-analysis of the deposited data

Results flagged for a closer look

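For 2 of the 36 genes the difference was called at both thresholds when the clones were tested against each other with edgeR. By the adjusted p alone 18 differed. Among all genes tested 5.73% were called and 41.6% differed by the adjusted p. GDF15 was higher in Mko-3 than in Ako-3 cells by 1.26 on the log2 scale, with all 3 Mko-3 libraries above all 3 Ako-3 libraries, and the value stayed between 1.23 and 1.33 when any library was left out. NUPR1 had a log2 fold change of -2.56 in Mko-3 against Ako-3 cells, between -2.77 and -2.34 when any library was left out, and its direction against control was opposite in the clones. With 1 clone for each gene, a difference between the genes and a difference between clones cannot be told apart.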

How the results depend on the processing

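Of 675 alternative values for the 15 genes given in every library, 660 kept their direction and their joint call (fold and adjusted p), 6 lost that call, 4 gained it and 5 changed sign. The sign changes were in Mko-3 against Ako-3 values near 0, on leaving out libraries: DDIT3 ran from -0.18 to 0.066, ASNS from -0.031 to 0.18 and CTH from -0.12 to 0.18. With log2(FPKM + 1), ALDH1L2 was at -0.48 in Ako-3 and -0.67 in Mko-3, ATF5 at 0.89 and NUPR1 at -0.78 in Mko-3, since the pseudocount shrinks low genes. ALDH1L2 in Ako-3 was at -0.99 with log2(FPKM + 0.1) and at -0.86 without Huh-7 replicate 3, and NUPR1 in Ako-3 at 1.01 with no filter on low counts. Called members numbered 10 to 12 in Ako-3, 9 to 13 in Mko-3 and 2 between the clones under every alternative, and 29 to 31 and 33 members were lower than control. By the adjusted p 29 to 32, 24 to 33 and 15 to 18 differed. Leaving out 1 library moved this call for small changes: ATF4, VEGFA, SHMT2, GPT2, INHBE and JDP2 lost it in Mko-3 and INHBE, LONP1 and GPT2 in Ako-3, while LONP1, VLDLR, PHGDH and CBS gained it in Mko-3 and ATF4 and CBS in Ako-3. Between the clones ALDH1L2, ATF5, CEBPG and CHAC1 lost it, CHAC1 on leaving out any of 4 libraries, and CBS and PSAT1 gained it. Over all genes, calls at both thresholds went from 1345, 1739 and 890 to 841, 1113 and 511 with at least 10 counts in every library, where fewer genes were tested, and to 317, 429 and 200 with log2(FPKM + 1). Same-numbered libraries did not deviate together (r from -0.07 to 0.06, against -0.08 to 0.07 for libraries of unlike number). This gave no sign that the replicate numbers pair the samples, but with 3 libraries per group it cannot exclude pairing. With a replicate block 11, 12 and 2 members were called at both thresholds, and 32, 29 and 18 by the adjusted p. The standard errors against control were largest for CBS, at 0.30 and 0.32, and only 40 to 66 fragments of NUPR1 were counted per Mko-3 library.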
